A study of Homo sapiens with 9 samples.

Results

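The imprinted gene cluster at chromosome band 11p15 was examined in HIF-1α ChIP-seq data, in which DNA bound to a protein is pulled down with an antibody and sequenced. The cells were SK-N-BE(2), an established human neuroblastoma line with amplified MYCN. The groups were HIF-1α libraries from cells kept for 48 hours at 1% oxygen (hypoxia, 3 libraries) and HIF-1α libraries from cells kept for 48 hours at 21% oxygen (normoxia, 3 libraries). The 3 input libraries came from cells at 21% oxygen and entered only through the background values inside the peak lists. Nothing in the labels says whether same-group libraries came from separate cultures, so the spread between them may be technical, and all of it comes from a single cell line.

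The members were all peak summits on chromosome 11 between 1.95 and 2.95 Mb of the hg19 genome, leaving out 2.175 to 2.21 Mb, which was not analysed here. The window was chosen by measured fold values, because it holds the highest fold of the hypoxia 2 and hypoxia 3 lists. Those values are therefore given as a description and support nothing. Overlapping intervals of the 6 lists, by 1 bp or more, were merged and gave 24 regions, of 9420 in the whole series. The rule places 5 genes in the window only roughly, MRPL23 near 1.97 Mb, H19 near 2.02 Mb, IGF2 from 2.15 to 2.17 Mb, KCNQ1 from 2.47 to 2.87 Mb and CDKN1C near 2.90 Mb. No hg19 gene annotation was used here, so whether a region lies in an exon, an intron or a promoter was not determined.

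HIF-1α is the part of a transcription factor that oxygen controls; the factor binds short DNA elements with an RCGTG core, and HIF-1α accumulates when oxygen is low. In imprinted genes the maternal and the paternal copy differ in activity. At this cluster H19, a long noncoding RNA that is also the host of a microRNA, is made from the maternal copy, while IGF2, a fetal growth factor, is made from the paternal copy. Both are known, chiefly from mouse, to share enhancers on the far side of H19 from IGF2, with an imprinting control region bound by CTCF between the genes. A second imprinted domain lies further along the chromosome. It holds KCNQ1, a potassium channel gene, with KCNQ1OT1, an antisense noncoding RNA made from the paternal copy, and CDKN1C, an inhibitor of cyclin-dependent kinases made from the maternal copy. MRPL23 encodes a protein of the mitochondrial ribosome and stands beside H19. Peak lists hold no information on which parental copy a read came from.

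The H19 promoter is shown because the densest group of calls ended just short of the stated place of this gene. H19 is read from the minus strand, towards lower positions, so those calls lay on the side of its end and not of its promoter. The stretch from 2015516 to 2114319, past the stated place of H19, held no call in any list. All 5 genes were found in the RefSeq gene table, and 1 of them, H19, in the RefSeq promoter table. In lower case are the 250 bases before the start that RefSeq promoter table gives for H19, and in capitals the 50 bases after it. Other possible starts of H19 were not scanned. The bases are on the minus strand of chromosome 11, GRCh38.p14, chr11:2001217-2001516. This build is not that of the peaks, so the sequence cannot be set against their positions.
H19: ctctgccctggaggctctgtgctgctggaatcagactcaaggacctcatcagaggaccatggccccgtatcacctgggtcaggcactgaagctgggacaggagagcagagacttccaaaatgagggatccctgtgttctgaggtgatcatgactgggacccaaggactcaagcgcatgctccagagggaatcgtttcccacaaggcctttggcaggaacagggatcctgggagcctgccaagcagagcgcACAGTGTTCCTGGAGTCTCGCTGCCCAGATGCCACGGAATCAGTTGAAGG
Neither core of the HIF element, ACGTG or GCGTG, was found in these 300 bases on either strand. Among 35116 RefSeq promoters of this length, 21.4% held ACGTG, 36.5% held GCGTG and 48.4% held at least 1 of them; the motifs can overlap where both strands are read. The letters are a description of this window and show nothing about binding.

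Of the 52 HIF-1α intervals in the window, 50 (96.2%) came from hypoxia libraries and 2 from normoxia 3. Over the whole series the hypoxia libraries gave 98.6% of all intervals, so the window was close to the share that the lengths of the lists give. The hypoxia 1, 2 and 3 libraries had 8, 19 and 23 intervals there, in 7, 18 and 22 of the 24 regions. The normoxia 1, 2 and 3 libraries had 0, 0 and 2 intervals, and both intervals of normoxia 3 lay in 1 region, chr11:1999864-2001295. That region also had the highest fold in hypoxia 2 and hypoxia 3, so it was left out of the tested counts. Outside it the hypoxia libraries had 15.7 ± 7.77 intervals and the normoxia libraries 0 ± 0 (SD, n = 3 each), a difference of 15.7. An exact permutation test of this difference, two-sided, returned p = 0.1, and 3 against 3 libraries cannot return less. The hypoxia lists held 1408, 5833 and 7619 intervals in all and the normoxia lists 75, 32 and 109. With lists so unlike in length, and a window chosen by hypoxia folds, this outcome was nearly fixed and the test supports nothing. The region chr11:2001421-2002146, which starts shortly after the one left out, stayed in the count.

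Set against the length of each list, the same intervals were 0.497% of the 1408 hypoxia 1 intervals (exact 95% interval 0.2% to 1.02%). They were 0.309% of 5833 in hypoxia 2 (0.183% to 0.487%) and 0.289% of 7619 in hypoxia 3 (0.181% to 0.437%). In normoxia 1, 2 and 3 they were 0 of 75, 0 of 32 and 0 of 109 intervals, which allows shares of up to 4%, 9.38% and 2.75%. The hypoxia lists had a mean share of 0.365% ± 0.115 and the normoxia lists one of 0% ± 0 (SD, n = 3 each, two-sided exact permutation p = 0.1). The normoxia lists were too short to show shares as small as those of hypoxia, so a difference in share was not detectable with lists of this length. With the strongest region kept, the difference in share turned to -0.213 percentage points (exact permutation p = 1), because 2 of 109 intervals of normoxia 3 lay in it.

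Library depth was alike, with 5.31 to 6.62 background reads per kb in hypoxia and 6.02 to 6.69 in normoxia. The libraries differed in the length to which reads were extended when peaks were called, which was 48, 155 and 167 bp in hypoxia 1, 2 and 3 and 46, 47 and 47 bp in normoxia 1, 2 and 3. Summit reads and folds of lists with short and with long extension are therefore not on 1 scale and are read here within a list. Local background is known only at called intervals. In the window it was at most 3.38 times the genome-wide value in hypoxia and 3 times in normoxia 3, while normoxia 1 and normoxia 2 gave no value. Over all intervals of a list its median was 16.6 times in normoxia 1, against 1.22 to 1.66 times in the other lists. The share given for normoxia 1 is set against these intervals of high background.

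**Figure D1:**
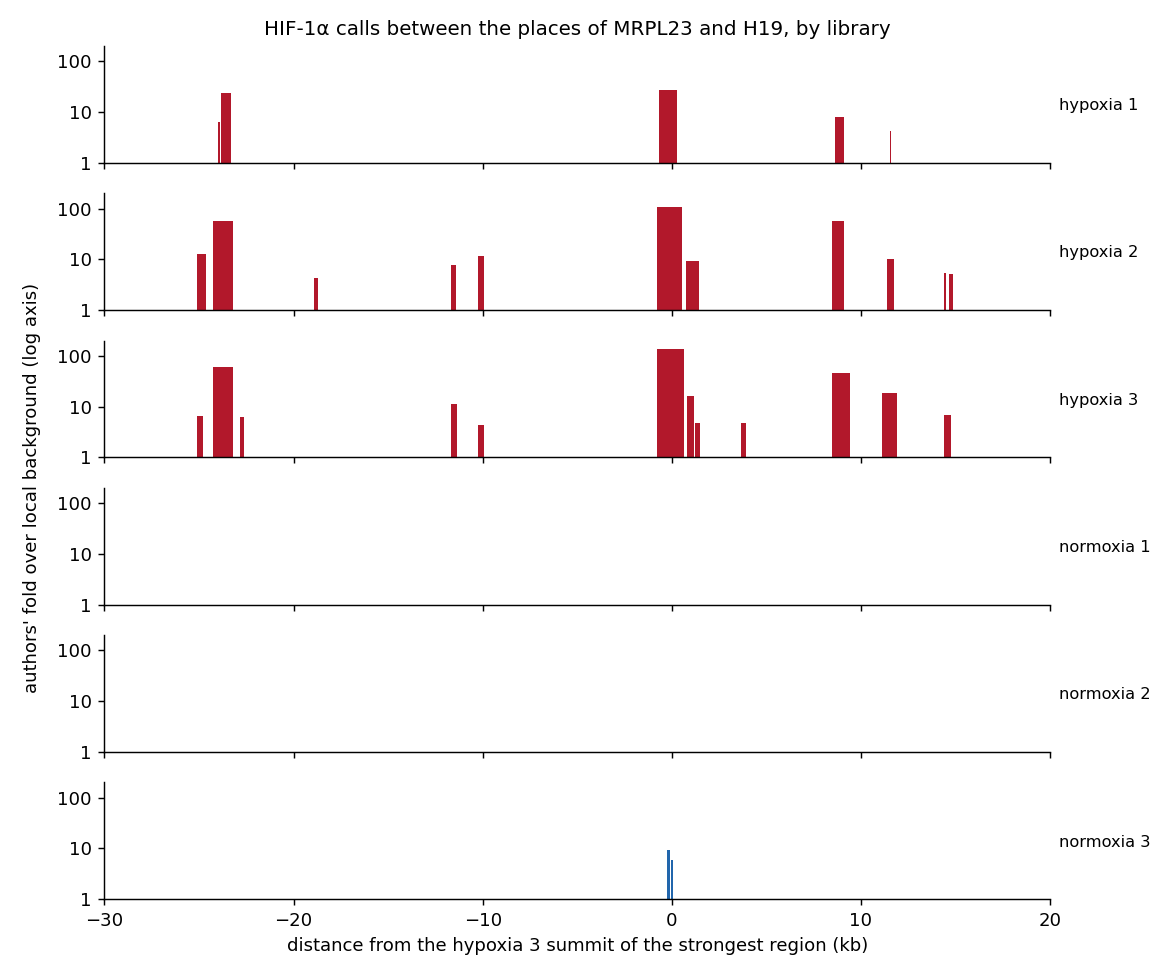
Calls from 30 kb before to 20 kb after the hypoxia 3 summit of the strongest region, with 1 panel per library, hypoxia in red and normoxia in blue. Each bar spans a called interval and its height is the authors' fold over local background on a log axis; the sites at -23.6, 0 and 8.91 kb stand in every hypoxia panel, and normoxia 3 has 2 short intervals at 0 kb.

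The calls recurred between hypoxia libraries. Of the 24 regions with a hypoxia call, 16 (66.7%) were called in at least 2 hypoxia libraries, against a share of 44.0% over all regions of the series with a hypoxia call. In all 3 hypoxia libraries 7 (29.2%) were called, against 11.5% over the series. These shares are a description of a window chosen for its high folds. The remaining replicated regions, 9 of 16, were called in hypoxia 2 and hypoxia 3 without hypoxia 1. Of the 8 regions called once, 2 came from hypoxia 2 and 6 from hypoxia 3. The number of replicated regions rested on both libraries with a long extension, since 7 were left when either hypoxia 2 or hypoxia 3 was left out. A normoxia call stood at 1 of the 16 replicated regions (6.25%), against 2.25% over the series.

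Most of the replicated regions stood between the stated places of MRPL23 and H19. The first 70 kb of the window, up to 2.02 Mb, held 12 regions, 9 of them replicated, which is 12.9 replicated regions per 100 kb. The 130 kb between the places of H19 and IGF2, where the imprinting control region is known to lie, held 1 region, called in hypoxia 2 alone. The 25 kb from the start of the IGF2 place to the stretch left out held 0 regions. The 260 kb between the stretch left out and KCNQ1 held 3 replicated regions (1.15 per 100 kb) and the 400 kb of KCNQ1 held 4 (1 per 100 kb). The last 80 kb, with the place of CDKN1C, held 0 regions. A missing call is not an absence of binding at this depth.

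**Figure D2:**
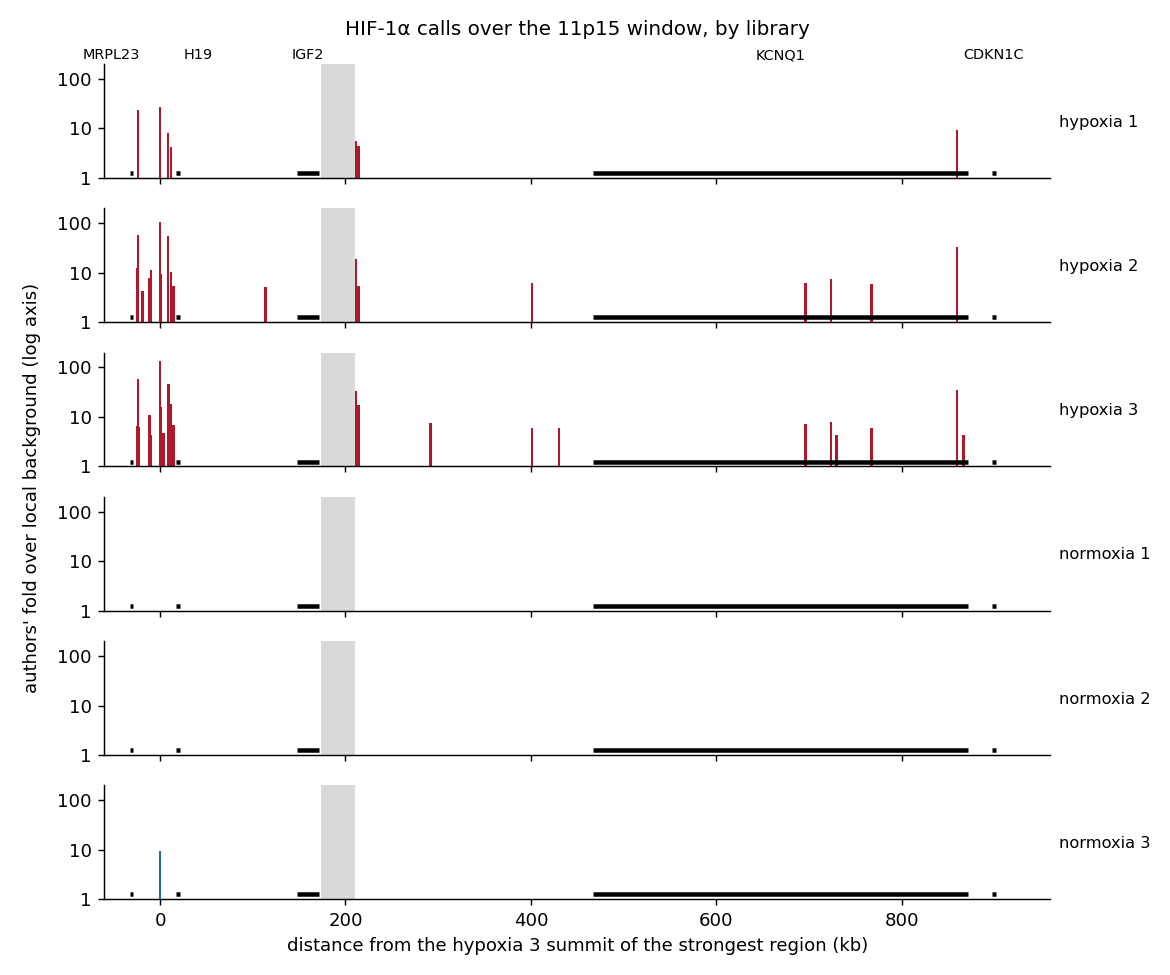
Calls over the whole window, with 1 panel per library, distance from the hypoxia 3 summit of the strongest region in kb on the x axis and the authors' fold on a log y axis. Black lines mark the approximate places of the 5 genes and the grey band the stretch left out; calls crowd between MRPL23 and H19 in all 3 hypoxia panels, and IGF2 and CDKN1C have none.

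The region with the highest fold of hypoxia 2 and hypoxia 3 was chr11:1999864-2001295, between the stated places of MRPL23 and H19. In the RefSeq gene order of GRCh38.p14 the long noncoding RNA genes MRPL23-AS1 and LINC01219 start between these genes. The authors' fold was 26.6, 107 and 137 in hypoxia 1, 2 and 3, from 48, 204 and 257 reads at the summit, and 9.27 in normoxia 3, from 11 reads. Every hypoxia library was high here within its own list, with rank 11 of 1408, rank 1 of 5833 and rank 1 of 7619 by fold. Its rank in normoxia 3 was 20 of 109, and normoxia 1 and normoxia 2 had no call.

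The summits of this region fell at 2000589, 2000651 and 2000667 in hypoxia 1, 2 and 3. Hypoxia 1 resolved the 953 bp of its interval into 5 summits, from 2000117 to 2000666. Normoxia 3 had an interval of 150 bp with its summit at 2000521 and one of 107 bp with its summit at 2000683, only 16 bp from that of hypoxia 3. Hypoxia 1 and normoxia 3 had extensions of 48 and 47 bp, so their reads can be set side by side. At their closest summits, 17 bp apart, hypoxia 1 had 54 reads and normoxia 3 had 10, a depth-corrected ratio of 5.1 (exact 95% interval 2.57 to 11.2). At the summits of smallest p, 68 bp apart, hypoxia 1 had 48 reads and normoxia 3 had 11, a ratio of 4.12 (2.11 to 8.81). The intervals cover counting error only and compare 2 libraries, not the oxygen levels. Normoxia 3 was compared because it alone of the normoxia libraries had a call here, and the intervals do not cover this choice.

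The second region by fold stood at -23.6 kb from the first, at chr11:1976385-1977487, near the stated place of MRPL23. Its fold was 23.5, 57.2 and 58.9 in hypoxia 1, 2 and 3, from 33, 148 and 146 summit reads, and no normoxia library had a call. All 3 hypoxia libraries placed it high, at rank 20, 50 and 52 of their lists. Its summits were at 1977045, 1977077 and 1977072, within 32 bp of each other. Close by, at chr11:1975566-1976027, hypoxia 2 and hypoxia 3 had a weaker call with folds of 12.5 and 6.5, from 23 and 12 reads.

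The third strong region of this stretch was chr11:2009118-2010097, 8.91 kb after the first. Its fold was 7.87, 55.6 and 46.4 in hypoxia 1, 2 and 3, from 11, 110 and 115 reads, and no normoxia library had a call. Hypoxia 2 and hypoxia 3 placed it at rank 56 of 5833 and 100 of 7619, while hypoxia 1 placed it at rank 398 of 1408. As a share of the reads of the strongest region in the same library, it had 22.9%, 53.9% and 44.7% in hypoxia 1, 2 and 3. The MRPL23-side region had 68.8%, 72.5% and 56.8%. These shares use the summit of smallest p, the hypoxia 1 share of the third region rests on 11 reads, and the difference between libraries was not tested. Hypoxia 1 had 3 summits in 433 bp here, the highest with 14 reads, and its best summit lay 150 bp from that of hypoxia 2. The part of the shorter extension of hypoxia 1 in this was not tested.

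The fourth region called in all 3 hypoxia libraries on this side of H19 was chr11:2011810-2012555, with folds of 4.27, 10.3 and 18.6 from 5, 34 and 34 reads. Between it and the stated place of H19 lay chr11:2015039-2015516, the closest to H19, called in hypoxia 2 with a best fold of 5.35 from 11 reads and in hypoxia 3 with 6.81 from 16 reads. The first of this pair was in the top 21.3% and 6.79% of the hypoxia 2 and hypoxia 3 lists and in the top 93.1% of hypoxia 1. The one closest to H19 was in the top 70.9% and 40.5% of hypoxia 2 and hypoxia 3 and had no call in hypoxia 1. No normoxia library had a call at either.

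The other replicated regions between MRPL23 and H19 had lower folds than the strongest 3 sites, and hypoxia 1 called none of them. At chr11:1988975-1989302 the folds were 7.81 and 11.1, from 14 and 20 reads in hypoxia 2 and hypoxia 3. At chr11:1990427-1990750 they were 11.5 and 4.26, from 22 and 16 reads. At chr11:2001421-2002146, which follows the strongest region within 1 kb of its summit, the best folds were 9.37 and 15.9, from 17 and 29 reads. Which of the libraries had the higher fold changed from site to site.

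In all, 9 replicated regions lay within 40 kb, from 1975566 to 2015516. Calls that shared no base were counted as separate regions. Among the 9, chr11:2001421-2002146 starts shortly after the strongest region ends at 2001295. Likewise chr11:1975566-1976027 ends shortly before the MRPL23-side region starts at 1976385. Whether such neighbours are parts of 1 site was not tested. For each of the 4136 replicated hypoxia regions of the series, the replicated regions starting within the next 50 kb were counted, itself included. The median was 1, and 4 regions (0.0967%) in 2 separate stretches, this one among them, had 9 or more. Over the 965 kb of the window that were analysed, 16 replicated regions were counted. Of 3103 fixed megabases of the genome, counted in full with no stretch left out, 2 (0.0645%) held at least as many, against a median of 1. Fixed megabases that overlap the window were counted too, 1508 of the 3103 held 0 replicated regions, and the highest count was 29. These are descriptions of a place chosen for its strong sites, since fixed megabases were not placed to fit their calls as the window was.

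**Figure D3:**
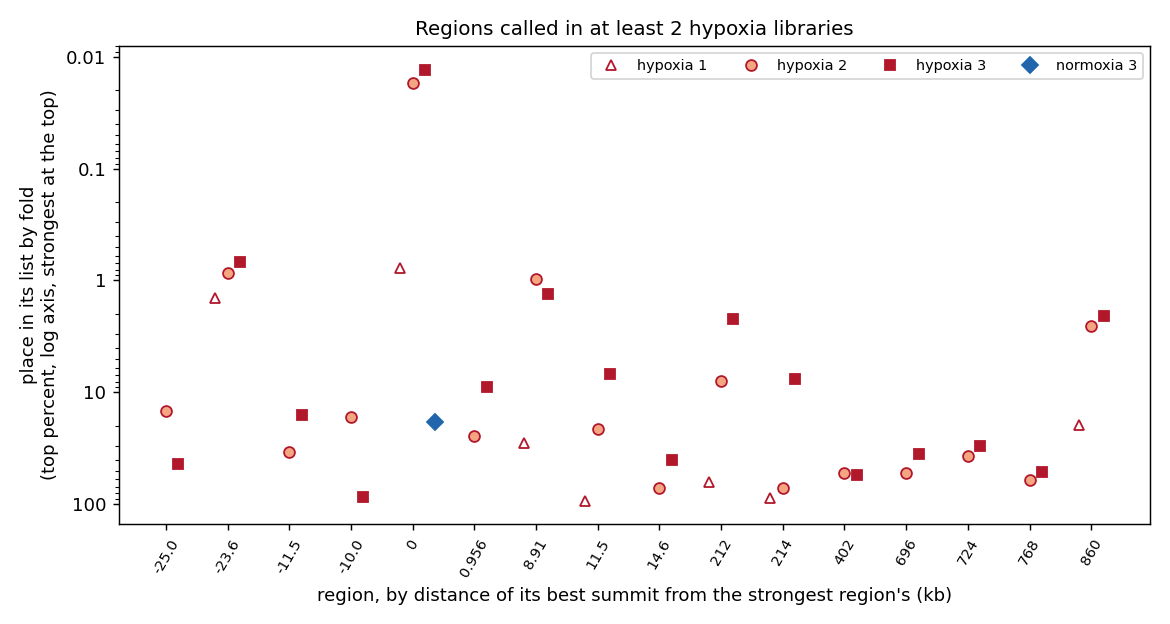
Place of each replicated region within its list by fold, as the top percent of the list on a log axis with the strongest at the top, with a symbol for each hypoxia library and for normoxia 3, against distance from the summit of the strongest region in kb. The strongest region is at the top of hypoxia 2 and hypoxia 3, 3 regions reach about the top 1% of those lists, and the lowest call shown for hypoxia 3 is at 86.5%.

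Beyond the stretch left out, a pair of regions was called in all 3 hypoxia libraries and in no normoxia library. At chr11:2211906-2212615 the fold was 5.43, 18.7 and 33.5 in hypoxia 1, 2 and 3, from 9, 48 and 66 reads. At chr11:2214373-2215161 it was 4.37, 5.28 and 17.8, from 5, 17 and 33 reads. Both were at their highest rank in hypoxia 3, with places in the top 2.19% and 7.53% of its list, and low in hypoxia 1, in the top 63.6% and 88.1%. A weak region at chr11:2402136-2402378 had folds of 6.25 and 5.83 in hypoxia 2 and hypoxia 3, from 11 and 10 reads.

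The KCNQ1 stretch had 6 regions, of which 1 was strong. This was chr11:2860405-2860974, near the far end of the stated place of KCNQ1. Its fold was 9.11, 33.1 and 34.4 in hypoxia 1, 2 and 3, from 11, 65 and 85 reads, and no normoxia library had a call. Hypoxia 2 and hypoxia 3 placed it in the top 2.55% and 2.09% of their lists and hypoxia 1 in the top 19.7%, with summits within 46 bp. The 3 other replicated regions of KCNQ1 had no call in hypoxia 1.

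At chr11:2696899-2697134 the folds were 6.25 and 7.21, from 11 and 17 reads in hypoxia 2 and hypoxia 3. At chr11:2724494-2724997 they were 7.52 and 7.95 from 14 reads each, with a pair of summits in either library. At chr11:2768097-2768449 they were 5.76 and 6.01, again from 14 reads each. These folds lay near the list medians of 6.53 and 6.12, and the region near the far end of KCNQ1 was the one of the 4 that stood high in its lists. The longest stretch without any call in the window, 266 kb, ran from 2431376 to 2696899 and took in the start of the stated place of KCNQ1. Another of 98.8 kb ran from 2015516 to 2114319, past the place of H19 towards IGF2.

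The 9 regions of hypoxia 2 and hypoxia 3 alone had folds from 5.35 to 12.5 (median 7.52) in hypoxia 2 and from 4.26 to 15.9 (median 6.81) in hypoxia 3. The 8 regions called once had folds from 4.19 to 5.21 in hypoxia 2 and from 4.24 to 7.42 in hypoxia 3, from 7 to 13 reads. The highest of these were chr11:2292090-2292631 with 7.42 and chr11:1977810-1978022 with 6.22, both in hypoxia 3. Just outside the window, the last region before it, chr11:1898051-1898521, had folds of 8.33 and 16.5 in hypoxia 2 and hypoxia 3, and the first region inside had 12.5 and 6.5. At the other edge the last region inside, chr11:2867400-2867698, had a fold of 4.31 and the first after it, chr11:3078635-3078864, one of 6.89, both in hypoxia 3 alone.

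Regions called by all 3 hypoxia libraries join overlapping intervals, which in itself keeps the summits of the libraries near each other. The range of the 3 summits had a median of 62 bp over the 7 regions (quartiles 47 and 114 bp, 32 to 181 bp in all). Over the 1085 such regions of the series the median was 52 bp (quartiles 32 and 84 bp), so the window was not tighter than the series. Between hypoxia 2 and hypoxia 3 the gap was 5 bp at the MRPL23-side region, 16 bp at the strongest region and 14 bp at the third.

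At the 2 strongest sites the hypoxia 1 reads were well above what a normoxia list needed. For a call, normoxia 1, 2 and 3 needed 6, 7 and 6 reads at the MRPL23-side region, by the lowest −log10 p of each list and the local background of hypoxia 1. The 33 reads of hypoxia 1 came to 33.4, 30 and 31.2 reads at their depth, which was 5.56, 4.29 and 5.2 times the number needed. At the strongest region the 48 reads of hypoxia 1 came to 48.5 and 43.6 reads in normoxia 1 and normoxia 2, where 8 and 9 were needed and no call was made. The 7 regions compared in this way were called in all 3 hypoxia libraries and include the one that chose the window, so high hypoxia 1 reads are in part a product of that choice and these values are a description.

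At the weaker regions the normoxia lists say less. At the third region of the stretch the hypoxia 1 reads came to 1.43 to 1.59 times the number needed, and at the KCNQ1 region to 1.67 to 1.85 times. At chr11:2211906-2212615 they came to 0.909 to 1.14 times, and at chr11:2011810-2012555 and chr11:2214373-2215161 to 0.649 to 0.842 times. At the last pair a signal equal to that of hypoxia 1 would not have been called in normoxia. No difference between oxygen levels was therefore detectable from these calls at that pair.

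**Figure D4:**
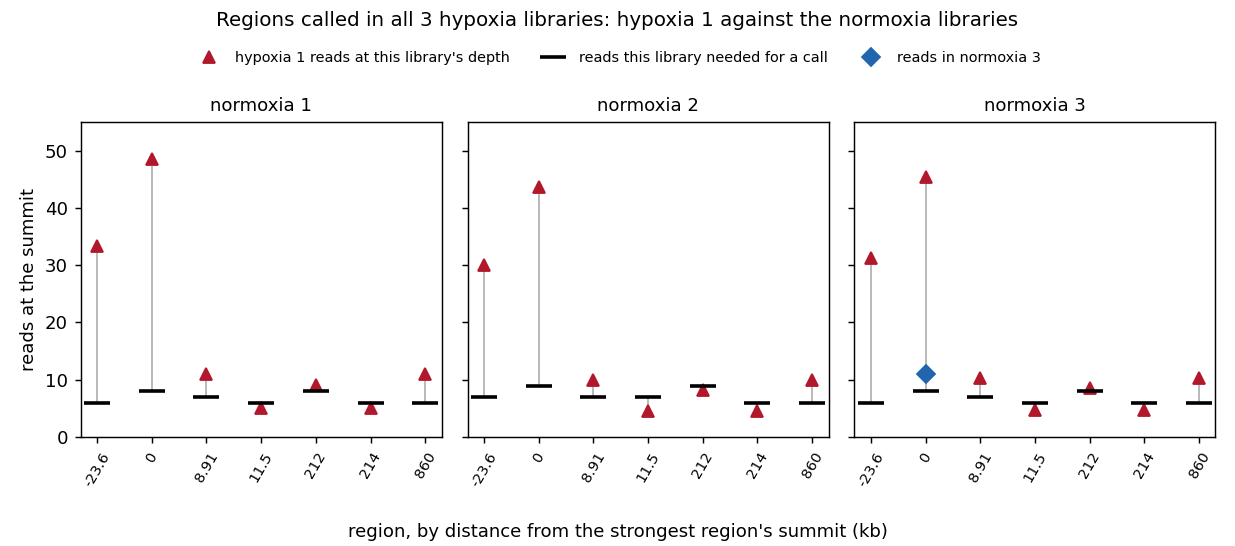
Reads at the summit for the 7 regions called in all 3 hypoxia libraries, with 1 panel per normoxia library: hypoxia 1 reads at the depth of that library (red triangles) and the reads it needed for a call (black bars), against distance from the strongest region in kb. At -23.6 and 0 kb hypoxia 1 stands at 4.29 or more times the number needed, and normoxia 3 made a call with 11 reads (blue diamond) at 0 kb.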

How the data were processed

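Per the submitters' processing notes, reads were processed with BWA 0.7.17 and MACS2 on hg19, with the version and settings of MACS2 not given in the sources used here. Each of the 6 HIF-1α libraries has 1 deposited peak list, called per sample. The deposited fold, −log10 p and −log10 q are the authors' peak caller's values. The fold fitted summit reads plus 1, divided by local background plus 1. It is therefore lower than the plain ratio of reads to background, most of all where background is low. The deposited score equalled 10 times −log10 q without its decimals at all 16463 summits.

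Intervals with the same ends were counted once, with the summit of smallest p. Intervals on chromosomes 1 to 22, X and Y that shared at least 1 bp were joined across the genome. Reads and local background were recovered from fold and p, whole within 0.001 of −log10 p at 100% of summits; the code recovered 500 of 500 simulated summits. The smallest background of a list divided by its shortest interval, taken as the read extension, gave its depth. A median of 9 to 24 reads lay behind a summit. Regions called in at least 2 hypoxia lists are named replicated.

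Groups and numbers came from sample titles. Two-sided exact permutation tests (SciPy 1.17.1, Python 3.11.15) compared libraries; binomial intervals are Clopper-Pearson, and the limit of a count of 0 is 3 counts. Intervals and limits cover counting error only. The window, gene places and lists were chosen with earlier results of these data known. Regions called in at least 2 lists are named, with the 2 highest-fold regions of those called once. Alternatives were stricter q and fold, low background, other window edges and overlaps, each library left out, and same-numbered libraries as pairs.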

Additional observations from a re-analysis of the deposited data

How the results depend on the processing

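The difference in interval counts outside the strongest region, 15.7, kept its direction under all 14 alternatives (6 to 20), and between 12.5 and 20 with 1 library left out. The difference in share, 0.365 percentage points, kept its direction under 13 of 14, and between 0.299 and 0.403 with 1 library left out; with the strongest region kept it was -0.213. All normoxia counts outside that region were 0, which fixes the direction, and no p could fall below 0.1, so these tests say nothing of stability. With same-numbered libraries as a replicate block the differences were 15.7 intervals and 0.365 percentage points (exact sign-flip permutation p = 0.25 each, the smallest that 3 pairs allow). Over the 24 regions, the calls of libraries 1, 2 and 3, less their group means, correlated between the groups at -0.278, 0.0651 and -0.181, but normoxia calls stood at only 1 of these regions, so these values cannot show whether the numbers pair the libraries; the labels give only numbers, and the main tests did not pair them. The 16 replicated regions were 6 without 0.1 Mb at each edge of the window, since the 9 between MRPL23 and H19 and the one at chr11:2860405-2860974 then fall outside, and 7 if a call in all 3 hypoxia lists was required. With 1 library left out they were 7 to 16, with the low value for hypoxia 2 or hypoxia 3. Under the other alternatives they were 11 to 18. Single calls rested on as few as 5 summit reads, and depth limits any statement on them.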
